A study of Mus musculus with 27 samples.

Results

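The branchial arch (BA) of the mouse embryo was compared with 3 other tissues of the same stage, the heart (cardiac tissue, Ca), the tail bud (TB) and the forelimb bud (FLB). The members are the 3 BA libraries among the 27 RNA-seq libraries of the series, and they were set against 3 libraries each of Ca, TB and FLB, so that 12 libraries entered the comparison. All 12 came from tissue cut from Slc:ICR embryos at E10.5, with no sorting and no treatment, and according to the methods the tissues were taken from 3 embryos, without saying how these fall on the libraries. The other 15 libraries, of hindlimb buds (HLBs), early limb buds and ES-cell-derived limb bud organoids (ES–LBs), did not take part in the rule. The early limb buds were younger than E10.5, at E10.0 by their labels. The paper gives the early forelimb and hindlimb buds separate ages, and neither is that of the labels. The ES–LB libraries were not of whole tissue but of cultured mesenchyme cells sorted for a Hand2 reporter on day 9 of culture. The cultures had been treated with retinoic acid for the forelimb type (ES–FLB) and with its antagonist for the hindlimb type (ES–HLB). According to the methods, both types also received a BMP ligand, a BMP inhibitor and a WNT ligand, among other additions. A gene was called higher, or lower, in BA than in each tissue only if it differed in that direction from the mean of Ca, TB and FLB and also from each of the 3 tissues singly. The tests were made with limma, a linear model with moderated variances, on log2(CPM + 0.5) (reads of a gene per 1000000 reads, CPM, after scaling), and the threshold was a Benjamini-Hochberg adjusted p of 0.05. Since nothing says that the 3 libraries of a tissue came from separate embryos or litters, p-values measure only the spread between libraries, which may be technical in part. Libraries of a tissue did differ in the sex-linked genes Xist and Ddx3y, and all 12 libraries held reads of both. The tests did not pair libraries by replicate number.

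The branchial, or pharyngeal, arches are paired swellings below the embryonic head that form the jaws, the middle ear, the hyoid and parts of the neck. Each has a core of mesoderm inside a mesenchyme made mostly by cranial neural crest cells, with surface ectoderm outside and pharyngeal endoderm inside. Crest cells read their position along the arch from signals such as endothelin-1, BMPs and FGF8, and hold it in nested expression of the Dlx homeobox genes, while their position along the body is held by Hox genes, which the crest of the first arch lacks.

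As the files show it, the BA libraries held 8077282 to 8541903 reads, the Ca libraries 7431873 to 8344912, the TB libraries 7616802 to 8443199 and the FLB libraries 5543756 to 5908848, estimated from the spacing of the low CPM values. A library with no read of a gene could still hold up to 3 reads' worth, 0.342 to 0.527 scaled CPM, a limit for counting error only. Of 23279 listed genes, 13895 reached 1 CPM in at least 3 of the 12 libraries and were tested. Libraries of a tissue correlated at r = 0.988 to 0.994 across genes, and BA correlated with FLB at 0.963 to 0.967, with TB at 0.938 to 0.943 and with Ca at 0.822 to 0.855, where genes are not independent replicates. Tissue labels were met by their defining genes, except for Hoxd11. Barx1, Dlx5 and Dlx2 were highest in BA, Myl2, Nkx2-5, Tbx20 and Tnnt2 in Ca, T, Tbx6, Hoxc12 and Hoxc13 in TB, and Tbx5, Fgf10 and Lmx1b in FLB. Hoxd11, taken as a limb bud marker, was at 57.1 ± 6.46 scaled CPM (SD, n = 3) in FLB and higher in TB, at 64.9 ± 2.71.

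The label of the arch was checked with Barx1, Dlx5 and Dlx2. These markers were chosen with earlier results of these data known, so their values describe the libraries and are no independent support. Barx1 (chr13:48663036-48666507, mm10), a homeobox gene of the jaw and tooth-forming mesenchyme, stood at 178, 155 and 168 scaled CPM in the 3 BA libraries, at 3.97, 8.10 and 4.73 in Ca, at 0.630, 0.354 and 0.464 in TB and at 0.517, 0.167 and 1.054 in FLB. All BA libraries were thus far above all others, and the next tissue was Ca. The smallest of its 3 log2 differences, the one from Ca, was 4.83 ± 0.268 (SE, adjusted p = 5.15e-12). Dlx5 (chr6:6877801-6882068), which marks the ventral part of the arches, was at 72.4, 79.9 and 84.2 in BA, at 0.530, 0.853 and 0.696 in Ca, at 4.03, 3.54 and 4.18 in TB and at 6.72, 5.85 and 8.26 in FLB. Dlx2 (chr2:71543408-71546754), which the whole arch mesenchyme uses, was at 88.9, 89.3 and 86.9 in BA, at 1.99, 1.42 and 0.975 in Ca, at 4.29, 3.42 and 5.34 in TB and at 8.96, 9.03 and 11.6 in FLB. For both, FLB was the nearest tissue, with log2 differences of 3.42 ± 0.166 (adjusted p = 5.31e-13) for Dlx5 and 3.11 ± 0.181 (adjusted p = 1.44e-11) for Dlx2. No library of another tissue overlapped with BA for any of the 3 genes.

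The stretches before the start sites of Barx1, Dlx2 and Lhx8 are shown because these genes carry the label of the arch or, for Lhx8, share the stretch with a second gene that was higher in BA. Each is the 250 bases upstream of the RefSeq start (GRCm38.p6), read in the direction of the gene. Dlx5 has no entry in the promoter table used here. Capitals mark matches, on either strand, to CCAAT, a common promoter element that reads as ATTGG on the other strand, or to TAATTA, a core that homeodomain proteins of the Dlx and Lhx kind can bind.
Barx1, chr13:48662786-48663035, + strand: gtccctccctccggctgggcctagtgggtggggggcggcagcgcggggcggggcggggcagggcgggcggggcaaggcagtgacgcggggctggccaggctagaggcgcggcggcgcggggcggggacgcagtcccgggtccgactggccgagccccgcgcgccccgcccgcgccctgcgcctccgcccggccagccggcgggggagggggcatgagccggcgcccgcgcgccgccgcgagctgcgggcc
Dlx2, chr2:71546755-71547004, - strand: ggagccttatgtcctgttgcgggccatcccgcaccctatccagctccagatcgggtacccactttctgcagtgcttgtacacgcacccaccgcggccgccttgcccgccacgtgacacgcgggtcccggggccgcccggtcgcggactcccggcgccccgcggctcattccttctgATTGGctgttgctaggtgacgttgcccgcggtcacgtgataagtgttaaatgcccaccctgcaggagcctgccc
Lhx8, chr3:154330561-154330810, - strand: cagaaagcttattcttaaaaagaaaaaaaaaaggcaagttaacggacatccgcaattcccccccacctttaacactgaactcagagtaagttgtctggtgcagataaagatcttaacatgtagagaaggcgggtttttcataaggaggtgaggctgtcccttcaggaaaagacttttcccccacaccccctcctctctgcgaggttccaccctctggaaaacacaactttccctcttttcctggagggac

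These 3 stretches differ in base composition, with 85.6% G and C in Barx1, 66.4% in Dlx2 and 46.0% in Lhx8, where the median over promoters of all genes tested was 60%. One CCAAT match lies in Dlx2, and no match to either motif lies in Barx1 or Lhx8. Promoters were matched by symbol for 261 of the 382 genes higher in BA than in each tissue, with 361 promoters in all. TAATTA was in 3.05% of these and in 2.38% of the 12671 promoters of genes tested, and CCAAT was in 36.6% and 35.1%, shares that are given as a description. Of all 32851 promoters in the table, 4.84% held TAATTA and 33.9% held CCAAT.

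BA was higher than the mean of the other tissues in 3754 genes (27% of those tested) and lower in 3909 (28.1%). The spread was taken within tissues only, and with the 9 other libraries as 1 group the counts were 118 and 54. Only a small part of the 3754 and 3909 genes differed from each tissue singly. In 382 genes (2.75%) BA was higher than in Ca, TB and FLB alike, and in 321 (2.31%) it was lower than in all 3. When libraries were scaled by their upper quartile, the counts were 505 and 268, so that the share of higher calls went from 54.3% to 65.3%. Of the 3372 genes that were higher against the mean but not against each, 1333 missed only the difference from FLB, 235 only that from TB and 139 only that from Ca, while 1479 differed from Ca alone. Among the 1333, BA was even lower than FLB in 103. A difference from the pooled tissues was thus often a difference from the heart alone, and among genes that missed 1 tissue only, that tissue was mostly the forelimb bud. Of the 3588 genes that were lower against the mean but not against each, 1656 differed from Ca alone and 1254 missed only FLB.

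Singly, BA was higher than Ca in 5276 genes (38.0%) and lower in 5101 (36.7%), higher than TB in 2982 (21.5%) and lower in 3068 (22.1%), and higher than FLB in 1398 (10.1%) and lower in 1208 (8.69%). These comparisons share the BA libraries. The genes furthest above Ca were Pitx1, Dlx1as and Dlx6as1, and those furthest above TB and above FLB were Barx1, Dlx1as and Lhx8. In the other direction, the contractile genes Myl2 and Myh6 and the hormone gene Nppa were lowest against Ca. Myl2 was at 0.228, 0.354 and 0.119 in BA and at 4243, 3316 and 3181 in Ca. The Hox genes Hoxc10 and Hoxb9 and the antisense transcript Hoxa11as were lowest against TB, and all of them were at 0 in every BA library. Hoxa10, Hoxd13 and the limb mesenchyme factor Lhx9 were lowest against FLB.

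Of the genes higher in BA than in each tissue, 106 (0.763%) were over 2-fold higher against each, and of those lower, 50 (0.36%). In 363 of the 382 higher genes every BA library was above all 9 others, against 766 (5.51%) of all genes tested, and in 301 of the 321 lower genes every BA library was below all 9, against 539 (3.88%). The same libraries made the calls, so this separation followed largely from the rule and adds nothing to them. Differences from the nearest tissue were mostly small, with a median of 0.53 on the log2 scale for the higher genes and −0.42 for the lower. By annotation, 364 of the higher genes code for protein and 15 are long noncoding RNAs, while 319 of the lower genes code for protein and 1 is a long noncoding RNA.

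**Figure D1:**
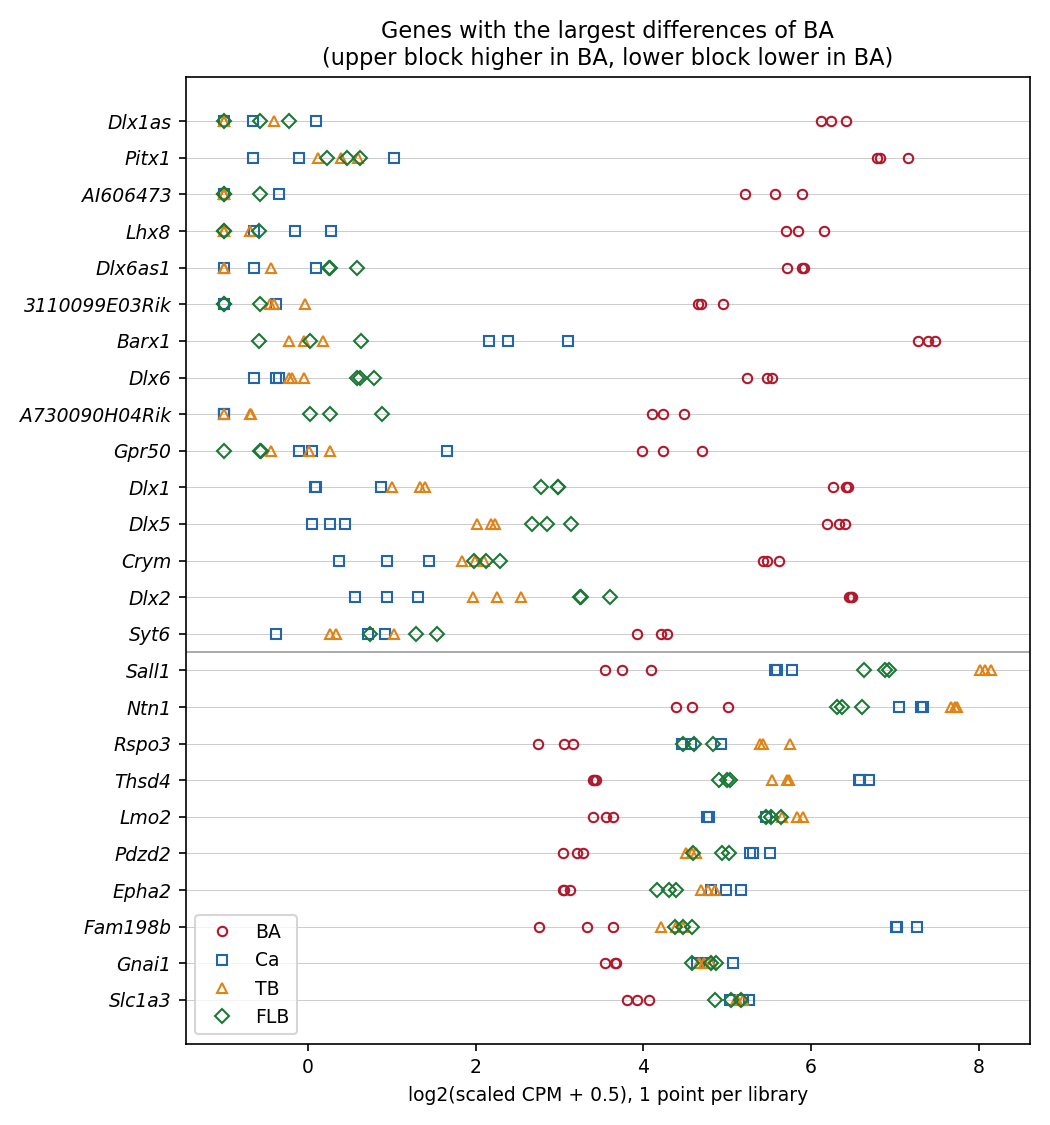
Levels, as log2(scaled CPM + 0.5), of the 15 genes furthest above and the 10 furthest below the nearest tissue in BA, with 1 point per library of BA (circles), Ca (squares), TB (triangles) and FLB (diamonds). In the upper block the BA libraries lie to the right of all others, by 2.95 (Syt6) to 6.78 (Dlx1as) from the nearest tissue on average, and in the lower block to the left by 1.09 (Slc1a3) to 1.85 (Sall1). The genes were chosen for this lack of overlap.

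Dlx genes and their noncoding neighbours led the genes higher in BA. All 6 Dlx genes were higher in BA than in each tissue. Dlx1 (chr2:71528113-71533981), the neighbour of Dlx2, was at 86.3, 85.1 and 76.5 in BA and at 7.41, 6.35 and 7.38 in FLB, the nearest tissue (log2 difference 3.46 ± 0.198, adjusted p = 1.16e-11). Dlx6, the partner of Dlx5 in the ventral arch, was at 37.1, 44.1 and 45.9 in BA and at 1.03, 1.00 and 1.23 in FLB (4.75 ± 0.216, adjusted p = 1.58e-13). Dlx3, known for the ventral end of the arches, was at 66.1, 79.0 and 77.2 in BA and at 9.99, 9.19 and 8.26 in FLB (2.95 ± 0.299, adjusted p = 8.35e-06). Its partner Dlx4 was low even in BA, at 4.67, 4.84 and 5.85, and no library of another tissue exceeded 0.557. With any 1 BA library left out, Dlx4 no longer reached the minimum level in 3 libraries and was not tested. The same held for 19 of the 382 genes, among them Dlx1as, Lhx8, AI606473, 3110099E03Rik, Foxl2, Foxl2os, 2900092D14Rik, Nkx2-3 and Cyp26c1. In FLB and TB the Dlx genes were not absent. Dlx1, Dlx2, Dlx3 and Dlx5 all had means of 6.94 to 9.86 in FLB, where the surface ectoderm of limb buds is known to use them.

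Antisense transcripts of the Dlx pairs stood further apart from the other tissues than the coding genes. Dlx1as was at 69.2, 74.9 and 84.7 in BA and at most at 0.569 in the other 9 libraries. Dlx6as1 was at 52.0, 59.96 and 58.8 in BA and at most at 1.00 elsewhere, and A730090H04Rik, whose position overlaps with Dlx4, was at 16.6, 18.3 and 22.0 in BA and at most at 1.34 elsewhere. Smallest log2 differences were 6.78 ± 0.290 for Dlx1as (from Ca), 5.47 ± 0.271 for Dlx6as1 (from FLB) and 3.88 ± 0.263 for A730090H04Rik (from FLB). Whether reads of Dlx1 and Dlx1as, of Dlx6 and Dlx6as1, and of Dlx4 and A730090H04Rik were told apart depends on the strand setting of the counting, which is not given in the sources used here.

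Lhx8 and Lhx6, LIM homeobox genes of the oral part of the first arch, were also among them. Lhx8 was at 71.0, 57.1 and 51.7 in BA, at 0.397, 0.711 and 0.139 in Ca, at 0, 0.118 and 0 in TB and at 0, 0.167 and 0 in FLB, levels which in TB and FLB do not exceed what 3 reads allow. Its nearest tissue was Ca (6.08 ± 0.265, adjusted p = 5.93e-15). AI606473, a transcript that starts 260 bases from Lhx8 on the other strand, was at 59.1, 47.1 and 36.6 in BA and 0 in all TB libraries, at least 126-fold higher in BA with TB set at 3 reads per library. The stretch printed above lies between both genes. Lhx6 was at 69.0, 46.1 and 43.0 in BA and at 7.31, 5.89 and 6.27 in TB, the nearest tissue (2.90 ± 0.392, adjusted p = 0.000129). In all 3 genes BA 1 was the highest of the BA libraries.

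Pitx1, a homeobox gene known both for the mandibular arch and for hindlimb identity, was at 113, 110 and 143 in BA and at most at 1.53 in Ca, TB and FLB (smallest log2 difference 6.49 ± 0.307, from FLB, adjusted p = 8.85e-12). In the GENCODE annotation it overlaps with Gm47071 on the other strand and with Gm28760 on its own. Its call rests on the 3 tissues chosen, because the E10.5 HLBs, which the rule left out, held 239 ± 8.07 (SD, n = 2). Of the other genes furthest above the nearest tissue, Gpr50 (an orphan receptor of the melatonin receptor family) was at 15.4, 18.3 and 25.5 in BA with at most 2.65 elsewhere, Crym (a thyroid hormone-binding protein) at 48.6, 42.4 and 44.0 with at most 4.39, and Syt6 (a synaptotagmin) at 14.7, 18.1 and 19.0 with at most 2.41. The noncoding 3110099E03Rik was at 24.6, 30.3 and 25.2 with at most 0.472 elsewhere. None of their BA libraries overlapped with another tissue, which the rule that named them required.

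Some called genes lay beside each other, in part as overlapping loci. Within 200000 bases of one another, the genes higher in BA included Dlx1, Dlx1as and Dlx2 on chromosome 2, Dlx6as1, Dlx6 and Dlx5 on chromosome 6, Dlx3, Dlx4 and A730090H04Rik on chromosome 11, Foxl2os and Foxl2 on chromosome 9 (296 bases between them), 1110050K14Rik and Foxf1a on chromosome 8 (1275 bases), and 2610017I09Rik, Pou3f3 and 2900092D14Rik on chromosome 1 (942 and 125 bases). Imprinted genes formed 2 such groups, Dlk1, Rtl1 and Rian on chromosome 12, and Ndn and Magel2 on chromosome 7. Magel2 was at 57.3, 60.5 and 67.2 in BA, where the nearest tissue, FLB, had 6.72, 9.36 and 10.02 (2.77 ± 0.194, adjusted p = 1.59e-09). Dlk1, a ligand of the Notch family, was at 497, 524 and 655 in BA but varied in Ca from 74.6 to 330. Its call was lost without any 1 of the BA or FLB libraries. These neighbours, Magel2 and Dlk1 were chosen after their values were seen.

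Homeobox genes of the arch's dorsoventral code were the list with most members higher in BA. Of its 15 members tested, 11 were higher than in each tissue (background 2.75%), none was lower, and all 15 were higher than the mean of the 3, with a median pooled log2 difference of 4.21 against −0.0013 over all genes tested. The 11 included the 6 Dlx genes, Barx1, Pitx1, Msx1 and Pou3f3. The list holds the arch markers Barx1, Dlx5 and Dlx2 and was chosen with earlier results of these data known, so its count is a description. Pou3f3, known for the dorsal (maxillary) arch, varied between the BA libraries, at 47.0, 33.2 and 20.9. Msx1, a BMP target of the distal arch, was at 164, 158 and 162 in BA and at 101, 110 and 104 in FLB, a log2 difference of only 0.61 ± 0.128 (adjusted p = 0.00451).

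The other 4 members of the code passed against the mean of the 3 tissues but not against FLB or TB. Gsc, a first-arch gene needed for the lower jaw, was at 33.5, 39.8 and 50.1 in BA, at 0.397, 0.711 and 4.46 in Ca, at 0.504, 0.236 and 0.348 in TB, and at 25.5, 25.9 and 31.6 in FLB. All BA libraries were above all others, but its difference from FLB was 0.55 ± 0.545 (adjusted p = 0.574). It passed when Ca 3 was left out. Emx2 was at 32.1, 33.0 and 22.3 in BA and 28.8 to 34.3 in FLB, Msx2 at 36.2, 37.8 and 36.3 and 46.3 to 55.5, and Nkx3-2, a jaw joint gene, was at 4.10, 4.13 and 5.74 in BA against 3.28, 3.18 and 3.48 in TB.

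Genes of the endothelin pathway, which sets ventral arch identity upstream of Dlx5, Dlx6 and Hand2, gave no member that was higher or lower than in each tissue among 13 tested. At the shares over all genes tested, 2.75% and 2.31%, a list this short can hold no call. Hand2, the ventral effector of the pathway, was at 129, 165 and 186 in BA, 161, 146 and 146 in Ca, and 157, 150 and 148 in FLB, and only in TB was it low, at 2.90, 0.825 and 2.44. It passed against the mean of the 3 tissues (2.07 ± 0.259, adjusted p = 0.000165), although its differences from Ca and FLB were 0.07 ± 0.317 and 0.06 ± 0.317. Hand1, used in the ventral arch and in the heart, was at 32.8, 39.1 and 40.5 in BA and higher in Ca, at 85.9, 64.4 and 80.9. The receptor gene Ednra was at 73.3 to 75.6 in BA and at 112 to 122 in FLB. Edn1, the ligand, was at 0.797, 1.06 and 1.91 in BA.

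**Figure D2:**
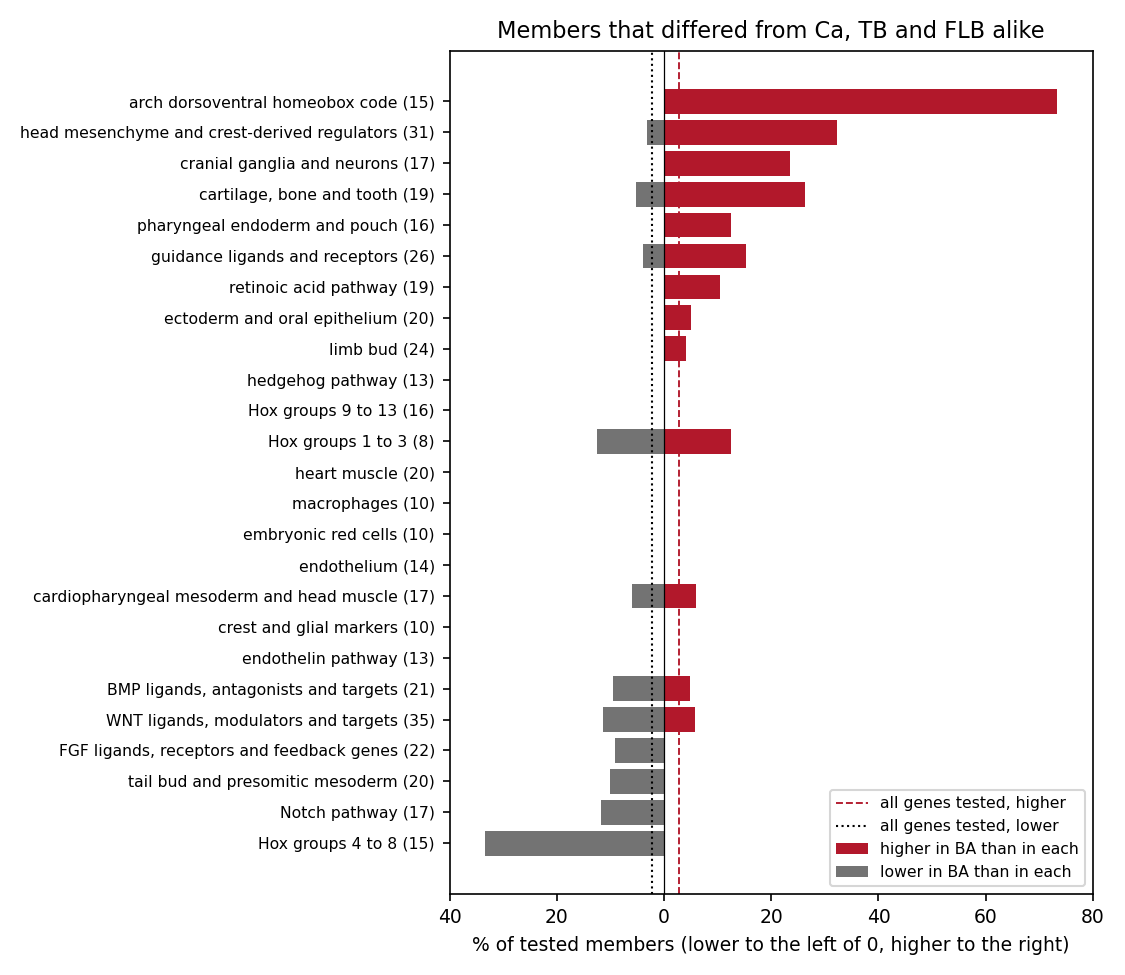
Share of tested members of each gene list, in percent, that was higher in BA than in each of Ca, TB and FLB (red, right of 0) or lower than in each (grey, left of 0), with the number tested in parentheses and a dashed and a dotted line at the shares over all genes tested, 2.75% and 2.31%. The homeobox code of the arch stands at 11 of 15 higher, and Hox groups 4 to 8 at 5 of 15 lower.

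Regulators of head mesenchyme were higher in BA in 10 of 31 tested (background 2.75%), and 1 was lower (background 2.31%), while 25 were higher than the mean of the 3 tissues (background 27%). Alx1, a gene of the frontonasal and periocular mesenchyme, was at 26.0, 25.4 and 17.6 in BA and at 6.03, 5.52 and 7.21 in FLB (1.78 ± 0.452, adjusted p = 0.0208). Foxf2, a hedgehog-responsive palate gene, was at 26.9, 29.6 and 35.4 in BA and at 10.6, 8.84 and 11.4 in TB (1.53 ± 0.358, adjusted p = 0.00389). Foxl2, a forkhead gene of eyelid and ovary, was at 18.8, 7.44 and 5.74 in BA and at most at 0.472 in all others. Six2 was at 48.5, 42.5 and 49.7 in BA and at 13.1, 8.19 and 15.6 in FLB, with an adjusted p of 0.0498 for that difference, and its call was lost without any 1 library other than Ca 1 or Ca 3. The call of Alx1 was lost without BA 1, BA 2, FLB 1 or FLB 2, and that of Meis2 without BA 2, BA 3, Ca 1, FLB 1 or any TB library. Eya1, Meis2, Nr2f1, Nr2f2, Lhx6 and Lhx8 completed the 10. Nr2f1, a nuclear receptor of cranial crest, was at 187, 178 and 209 in BA against 40.5, 40.6 and 44.8 in FLB. Ets1, used by crest cells and by endothelium, was the member that was lower, at 81.1, 80.1 and 86.9 in BA and at 101 to 152 elsewhere. General mesenchyme genes of the list did not separate BA from FLB. Prrx1 was at 610, 611 and 496 in BA and at 691, 690 and 675 in FLB, and Twist1 at 240, 228 and 226 and at 205, 194 and 195. The count was 6, 5 or 6 without BA 1, 2 or 3, where Lhx8 and Foxl2 no longer reached the minimum level in 3 libraries, 13 without Ca 3, and 7 to 9 without any 1 of the other 8 libraries.

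Ca 3 stood apart from the other Ca libraries by such genes. It was the highest Ca library in 26 of the 31 head mesenchyme genes, against 35.1% of all genes tested. Alx4, for example, was at 3.31 and 2.99 in Ca 1 and 2 and at 25.6 in Ca 3, and Six2 at 0.927, 1.99 and 7.94. These levels remained below those of BA, and their part in the results was not tested beyond leaving the library out, which brought the genes higher in BA than in each tissue from 382 to 453.

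Hox genes were low in BA as a whole. All 39 Hox genes listed by group were tested, 18 of them were at 0 in all 3 BA libraries, and these included 13 of the 16 genes of groups 9 to 13. No gene of groups 9 to 13 exceeded 0.455 in any BA library. As a sum, these 16 genes reached 0 to 0.569 in BA, 0.132 to 0.835 in Ca, 950 to 988 in TB and 795 to 832 in FLB, and none was called lower in BA than in each tissue where Ca reached at most 0.835 in sum. Hoxd13, which patterns the digits, was 0 in BA and 98.3 ± 4.75 in TB and 160 ± 7.00 in FLB (SD, n = 3), which makes BA at least 274-fold and 445-fold lower with BA set at 3 reads per library. For Hoxa10 the bounds were 251-fold from TB and 524-fold from FLB, and for Hoxc10, at 138 ± 7.34 in TB, 384-fold. Without Ca 1 or Ca 2, Hoxd13 was called lower than in each tissue.

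Groups 4 to 8 were lower in BA than in each tissue in 5 of 15 genes (background 2.31%), namely Hoxa4, Hoxa5, Hoxb4, Hoxc4 and Hoxc5, and all 15 were lower than the mean (background 28.1%). Hoxa5, a gene of the neck and thorax level, was at 0, 0.118 and 0.956 in BA, at 3.97, 6.26 and 5.71 in Ca, at 26.1, 21.1 and 27.3 in TB and at 32.04, 22.4 and 33.7 in FLB (smallest log2 difference −2.90 ± 0.341, from Ca, adjusted p = 7.88e-06). Hoxb4 overlapped with Ca, at 0.683, 1.06 and 4.18 in BA and 3.71, 7.68 and 10.3 in Ca, and its call was lost without BA 1, BA 2 or any 1 of the FLB libraries. Neighbouring Hox genes share transcripts and overlap in the annotation, so that their reads may be split by the counting.

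Groups 1 to 3 held the exception. Hoxa2, which gives the second arch its identity and is off in the first, was at 17.9, 31.0 and 27.8 in BA, at 1.46, 2.56 and 4.59 in Ca, at 15.001, 13.6 and 12.2 in TB and at 7.06, 9.19 and 8.61 in FLB. Of the 39 Hox genes it alone was higher than in each tissue (background 2.75%), by 0.86 ± 0.301 from TB (adjusted p = 0.0380). That call was lost without BA 2, without BA 3 and without 7 of the other 9 libraries, and it held without BA 1, Ca 1 and Ca 3. Hoxb1 was at 0, 0 and 2.27 in BA, Hoxa3 at 1.14, 7.20 and 7.41, and Hoxb3 at 2.85, 9.68 and 12.3. In each of these and in Hoxa2 the library BA 1 was at or near the lowest of the 3.

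**Figure D3:**
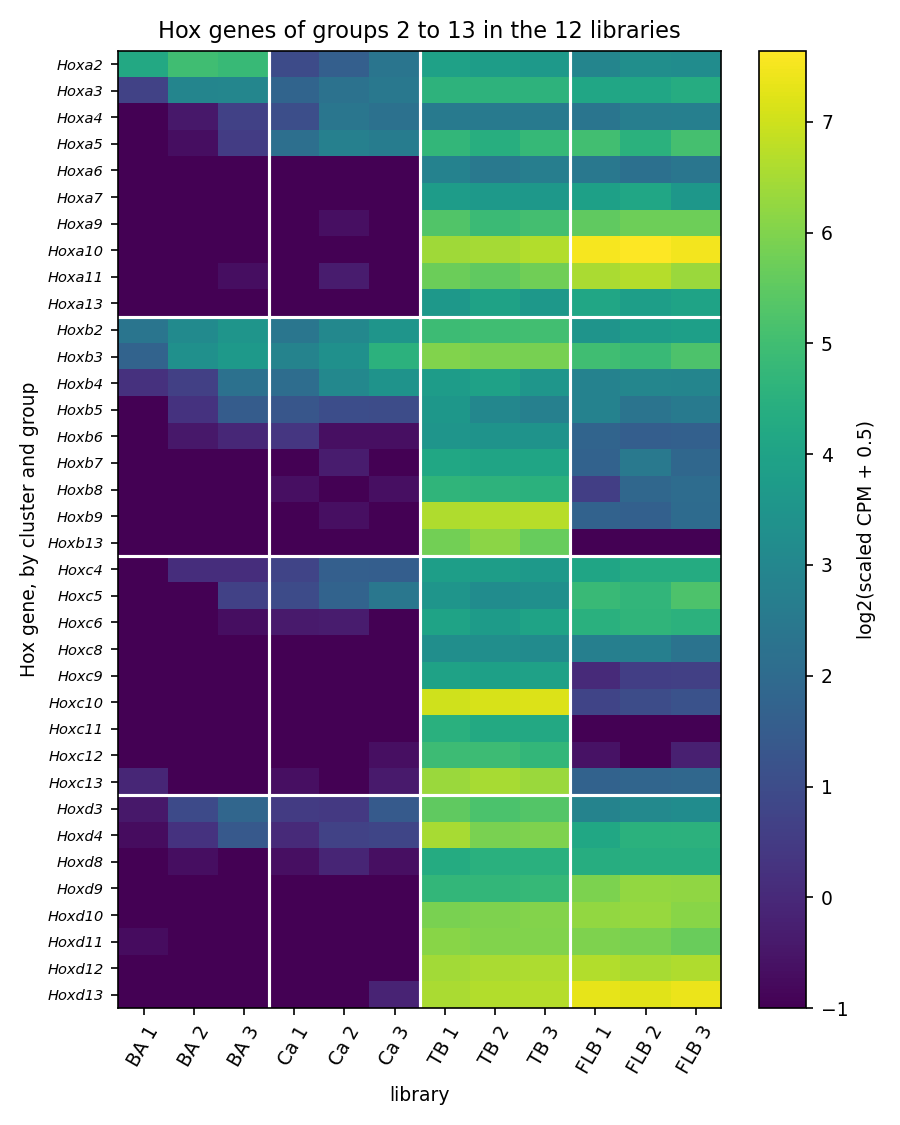
Level of the Hox genes of groups 2 to 13, as log2(scaled CPM + 0.5) by colour, in the 12 libraries (columns), with genes ordered by cluster and group (rows). Groups 9 to 13 are near 0 in BA and Ca and reach their levels in TB and FLB, and Hoxa2 is the row in which the BA libraries, at 17.9 to 31.0 scaled CPM, are the highest.

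Other cell types in the arch were followed by their markers. Since these are bulk samples, fewer cells of a type and less RNA per cell cannot be told apart. Neuron genes, which mark the cranial ganglia that lie at the arches, were higher in BA than in each tissue in 4 of 17 (background 2.75%), among them Nefm, Tubb3 and Neurod1, and none was lower. These genes also varied between the BA libraries. Nefm, a neurofilament, was at 101, 17.9 and 54.2 in BA against at most 14.2 elsewhere (2.23 ± 0.6002 from TB, adjusted p = 0.0161), and Tubb3, a tubulin of neurons, at 108, 25.1 and 55.1, where the lowest BA library overlapped with TB and the call held without BA 2, Ca 1 and TB 1 alone. BA 1 was the highest and BA 2 the lowest library in 15 of the 17, against 14.3% of all genes tested, and their summed level ranged from 147 to 480 in BA, from 53.6 to 67.1 in Ca, from 183 to 232 in TB and from 168 to 188 in FLB. Of the 17, only Nefm was higher than in each tissue without BA 1, and 6 were without BA 2, while without BA 3 it was Neurod1 alone and without TB 2 or TB 3 another 1 of the 4. Pou4f1, a sensory ganglion factor, was at 12.8, 0.236 and 1.67. Other genes of neurons over 2-fold higher in BA than in each tissue, chosen after their values were seen, were Gap43 (91.0, 83.4 and 77.5 against at most 30.3 elsewhere), Isl2, Mapt and P2rx3, and among these Gap43 did not follow the order of the ganglion genes.

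Crest and glial markers gave no call in 10 tested, which is near the shares over all genes tested. Sox10, the defining gene of migrating crest and glia, was at 18.2, 3.54 and 8.24 in BA and at 20.7, 18.9 and 16.8 in TB, and Foxd3 at 1.82, 0.826 and 2.75 and at 7.56, 9.78 and 8.24. Head muscle and cardiopharyngeal mesoderm gave 1 higher gene, Ebf1, and 1 lower gene of 17, where the shares over all genes tested were 2.75% and 2.31%. The call of Ebf1 was lost without BA 1, BA 3, TB 2, FLB 1 or FLB 2. Tbx1, the defining gene of pharyngeal mesoderm and endoderm, was at 7.97, 9.56 and 17.9 in BA and at most at 6.03 in other libraries, without a call (it was called without Ca 1 or Ca 3), and Ebf3 at 173, 199 and 184 with at most 83.1 in FLB, where its difference had an adjusted p of 0.0691 and the call was made without Ca 1 or Ca 3. The muscle genes Myod1 (2.95 to 6.09) and Myf5 (2.16 to 3.70) were lower in BA than in FLB, with adjusted p = 0.0498 and 0.00522.

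**Figure D4:**
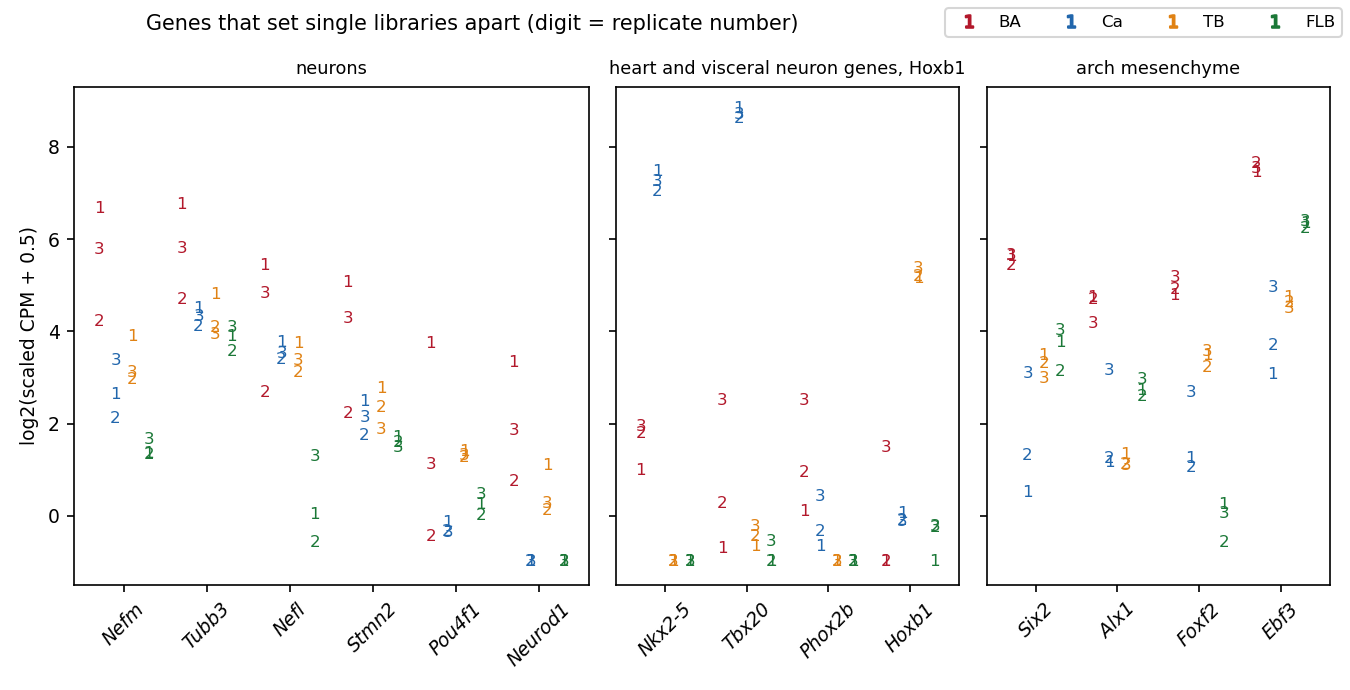
Levels, as log2(scaled CPM + 0.5), of 14 genes in single libraries, where each digit is the replicate number of a library of BA (red), Ca (blue), TB (orange) or FLB (green). In the left panel BA 1 is highest and BA 2 lowest, in the middle panel BA 3 is the highest BA library, and in the right panel Ca 3 is the highest Ca library.

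Of 16 pharyngeal endoderm and pouch genes tested, 2 were higher in BA than in each tissue, Nkx2-3 and Foxe1 (background 2.75%), and 0 were lower (background 2.31%). With a minimum of 5 CPM in 3 libraries no member was called. Of the 16, 8 were lower in BA than in TB (background 22.1%). Foxe1, a gene of the thyroid and palate, was at 4.33, 3.89 and 5.38 in BA and 0 in all FLB libraries, at least 8.60-fold higher with FLB at 3 reads per library. Pax9 and Pax1, the pouch genes, were at 8.20, 8.498 and 10.2 and at 5.58, 10.4 and 5.496 in BA but at 23.0 or more and 88.1 or more in TB, where the somites use them. Among 20 surface ectoderm genes, Grhl3 alone was higher than in each tissue (background 2.75%), at 19.1, 19.2 and 17.9 in BA. Its call was lost without any 1 of the BA libraries, TB 2, TB 3, FLB 1 or FLB 2. Epcam, Cdh1 and Trp63 were not higher than in each. Of the 20, 13 were higher than the mean of the 3 tissues (background 27%) and 15 were higher than Ca (background 38.0%). Trp63 was called without Ca 3. Heart muscle genes were near 0 in BA, with a summed level of 17.99 to 62.1 against 32807 to 39636 in Ca. The early heart factors Nkx2-5 and Tbx20 were at 1.48, 2.95 and 3.35 and at 0.114, 0.708 and 5.14, highest in BA 3. Endothelial genes were called neither way in 14, near the shares of 2.75% and 2.31% over all genes tested. Their sum was 449 to 520 in BA, 504 to 522 in FLB, 563 to 604 in TB and 1283 to 1363 in Ca. Red cell genes, by their globins, summed to 3012 to 3693 in BA, 2924 to 4193 in FLB, 6072 to 7054 in TB and 25445 to 36766 in Ca. Macrophage genes were low in all tissues, with no call in 10, again near the shares over all genes tested. The share of each cell type in the calls was not tested.

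Signalling genes are given by pathway, where over all genes tested 2.75% were higher in BA than in each tissue and 2.31% were lower. Among 35 WNT genes, Wnt9b and Frzb were higher in BA than in each tissue and Wnt2, Wnt5a, Wnt11 and Rspo3 lower. Wnt9b, an ectodermal ligand needed for the upper lip, was at 24.6, 26.1 and 26.3 in BA and at 8.45, 9.78 and 7.43 in TB (1.54 ± 0.207, adjusted p = 6.21e-06). Wnt5a was at 63.0, 69.0 and 68.1 in BA and at 74.6 or more in every other library, and Wnt11 at 4.55, 3.42 and 2.39 with 8.96 or more elsewhere. Rspo2, a WNT agonist that is needed for the lower jaw, was at 42.2, 46.0 and 47.1 in BA and at most at 19.4 elsewhere, but its difference from FLB had an adjusted p of 0.1099, and it was called without Ca 3. Of 21 BMP genes, the receptor gene Bmpr1b was higher (35.9, 44.5 and 41.3 against at most 22.3) and the ligand genes Bmp2 and Bmp7 were lower. Bmp2 was at 1.59, 2.12 and 2.27 in BA, at 4.41 to 7.66 in TB and FLB, and at 22.3 to 23.1 in Ca.

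Of 22 FGF genes none was higher than in each tissue, and Fgf18 and Spry2 were lower, the latter not without BA 1 or TB 2. The shares over all genes tested were 2.75% higher and 2.31% lower, at which short lists such as these can hold no call. Fgf8, the ligand of the arch ectoderm, was at 9.11, 12.7 and 8.60 in BA, 10.8, 9.55 and 11.1 in TB and 17.2, 24.1 and 21.6 in FLB. No hedgehog gene of 13 was called, and Ptch1, a target of the pathway, was at 119, 142 and 140 in BA, between TB (154 to 175) and FLB (70.1 to 73.9). Of 17 Notch genes, Jag1 and Hey1 were lower in BA, by 0.32 and 0.84 from the nearest tissue on the log2 scale, and the call of Jag1 was lost without BA 1, TB 1 or TB 3. Of 19 genes of the retinoic acid pathway, 2 were higher and none was lower. Among them, Cyp26c1, which degrades retinoic acid, was at 2.73, 2.01 and 4.06 in BA and 0 in all Ca and TB libraries, at least 6.88-fold and 7.76-fold higher with those at 3 reads per library, and Aldh1a2, which makes retinoic acid, was at 15.8 to 19.96 in BA, 39.8 or more in Ca and TB, and 7.52 or less in FLB. Of 26 guidance genes, Sema3a, Epha3, Efna5 and Efnb2 were higher and Nrp1, the receptor of Sema3a, was lower, at 62.7, 49.1 and 57.8 in BA and 83.5 or more elsewhere. The call of Epha3 was lost without any 1 of the BA or FLB libraries.

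Cartilage, bone and tooth genes were higher in BA than in each tissue in 5 of 19 (background 2.75%) and lower in 1, Sox6 (background 2.31%). Col9a1, a cartilage collagen, was at 210, 248 and 259 in BA and at 104, 107 and 111 in FLB (1.15 ± 0.146, adjusted p = 0.000303), and Col2a1 at 494, 501 and 556 with at most 393 elsewhere, in Ca. Barx1 and Runx1 were also among the 5. The call of Runx1 was lost without BA 2, BA 3 or Ca 1, and that of Sox6 without BA 3 or FLB 3. Sox9, a key factor of cartilage, was not called, with 58.8 to 76.6 in BA and 122 to 145 in FLB. Limb genes were lower in BA than in FLB in 20 of 24 (8.69% of all genes tested), and tail bud genes lower than in TB in 20 of 20 (22.1%). Of the tail bud genes, Tbx18 and Meox1 were lower than in each tissue. Tbx18 was at 2.16, 1.53 and 3.94 in BA, at 8.82, 9.43 and 9.40 in TB, and at 85.3 or more in Ca and FLB.

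The 10 genes furthest below the nearest tissue in BA, among those with 16 CPM or more in each other tissue, were led by Sall1. Sall1, a zinc finger factor of limb, kidney and tail, was at 11.2, 12.9 and 16.6 in BA, at 54.1, 46.9 and 47.9 in Ca, at 258, 284 and 270 in TB and at 122, 117 and 99.1 in FLB (smallest log2 difference −1.85 ± 0.122, from Ca, adjusted p = 1.21e-08). Ntn1, which codes for the guidance cue netrin-1, was at 20.5, 23.5 and 31.8 in BA and at 97.1, 81.9 and 78.6 in FLB (−1.76 ± 0.151, adjusted p = 2.27e-05). Rspo3, a WNT agonist, was at 8.42, 7.79 and 6.21 in BA and 21.6 or more in every other library (−1.65 ± 0.137, adjusted p = 1.98e-08). Thsd4, an extracellular matrix protein, was at 10.4, 10.03 and 10.2 in BA and at 29.5, 31.4 and 32.2 in FLB (−1.56 ± 0.078, adjusted p = 7.89e-13). Lmo2, a cofactor of blood and vessel precursors that limb mesenchyme also uses, was at 10.02, 11.9 and 11.2 in BA and 26.6 or more elsewhere. The others, Pdzd2, Epha2 (an ephrin receptor), Fam198b, Gnai1 (a G protein subunit) and Slc1a3 (a glutamate transporter), had smallest differences of −1.39 to −1.09. All BA libraries were below all 9 others in these 10 genes, which the rule required.

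The called genes were also looked up in the libraries that the rule did not use, as a description, since the BA libraries are the ones that chose the genes. Of the 106 genes over 2-fold higher in BA than in each tissue, 104 had all BA libraries above both usable HLB libraries of E10.5 (replicate 2 lists 3965 of 11328 genes at 0 that were above 2 CPM in the other 2 and was left out), 98 above the early FLBs and 102 above the early HLBs, where over all genes tested the shares were 28.3%, 31.2% and 29.4%. Against sorted mesenchyme from ES–LBs the numbers were 72 (ES–FLB) and 83 (ES–HLB), against 36.7% and 35.8% of all genes. BA was whole tissue, and the part of sorting, culture and treatment in the differences from ES–LBs was not tested. The median log2 difference of BA was 2.65 from the HLBs, 1.56 from ES–FLB and 1.74 from ES–HLB, against −0.0011, 0.029 and 0.033 over all genes tested. Of all 382 higher genes, every BA library was above every ES–FLB library in 197 and below in 104. Against ES–HLB these were 229 and 85. The medians were 0.26 and 0.39. Against the E10.5 HLBs, early FLBs and early HLBs, 356, 319 and 330 lay above and 6, 16 and 12 below. Runx1, for example, was at 6.3 ± 1.4 (SD, n = 3) in BA and 26.8 ± 1.28 in ES–FLB, and Sema3a at 112 ± 8.12 in BA and 284 ± 8.26 in the early FLBs. Pitx1 was the 1 gene of the 106 with both HLB libraries above all BA libraries. With the HLBs as a further tissue in the rule, 335 of the 382 genes higher in BA and 230 of the 321 lower were called again. Pitx1 and Msx1 were not.

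**Figure D5:**
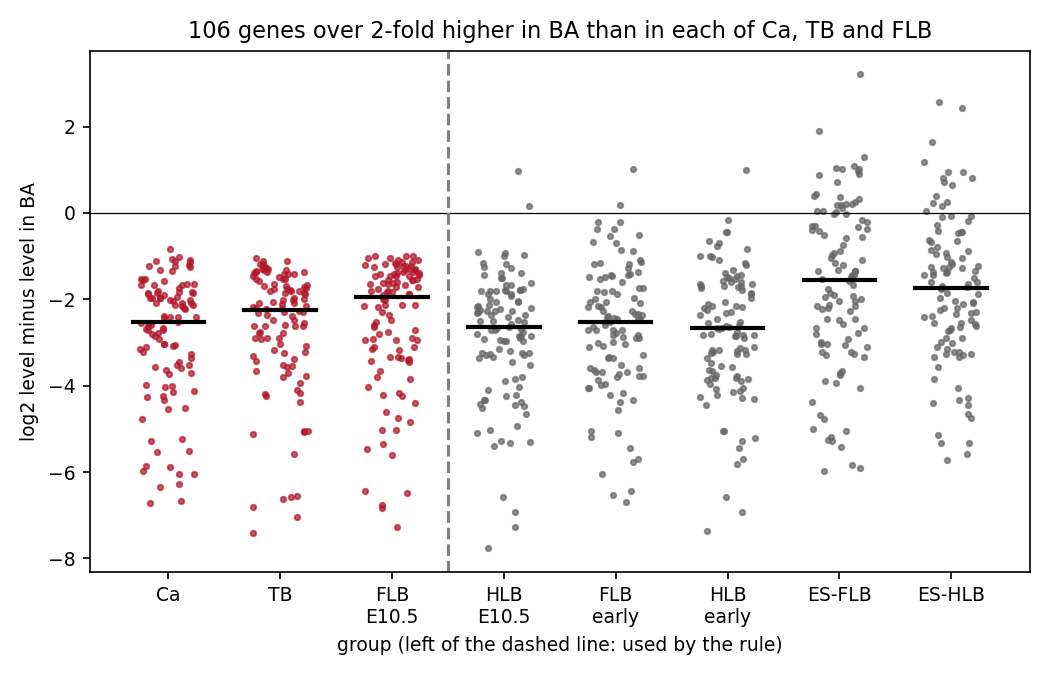
Log2 level minus the level in BA for the 106 genes over 2-fold higher in BA than in each of Ca, TB and FLB (1 point per gene, group means, bar at the median), in the 3 tissues that the rule used (red) and in 5 groups that it did not (grey). Values below 0 are lower than in BA, and most points of the E10.5 HLBs lie below 0, while more of those of ES-FLB and ES-HLB reach or pass it.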

How the data were processed

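Per the labels and the study's methods, RNA was taken from tissue cut from E10.5 embryos, stranded mRNA libraries (TruSeq) were read single-end on a HiSeq1500, and the authors mapped reads with HISAT 2.0.4 to mm10 with the RefSeq annotation, quantified them against the UCSC mm10 transcriptome with Cuffdiff and deposited CPM values (reads of a gene per 1000000 counts), which sum to 1000000 in each library. The strand setting of the counting and the step that gave CPM are not given in the sources used here. Authors' tests were not used, and 0 columns were left without a sample.

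From the deposited CPM, libraries were scaled by an unweighted trimmed mean of log ratios (30% of log ratios and 5% of intensities trimmed, over all 27 libraries). A gene was tested if 3 or more of the 12 libraries held at least 1 CPM, log2(CPM + 0.5) was fitted with limma 3.58.1 (R 4.3.3, with trend and robust), and the Benjamini-Hochberg adjustment ran over all 13895 genes. This scale understates the change of low genes. Depths were estimated from the steps between low values, of which 99.1% to 99.3% were whole reads within 0.1 read. On data simulated for 13703 genes at these levels, with 50 genes changed at each of 4 sizes, the fit called 50 of 50 with a log2 change of 2, 50 of 50 with 1, 45 of 50 with −1 and 50 of 50 with −2. There Ca, TB and FLB shared the same mean per gene, the dispersion was fixed, and no low gene was changed. Differences among the tissues, uneven libraries and low genes were thus not covered, and the recovery does not tell how many of the reported calls hold.

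The genes named are the members of 25 lists, the 15 furthest above and 10 furthest below the nearest tissue with no overlap and 16 CPM or more, and the 3 furthest in each direction for each tissue. The tissues, markers and lists were chosen with earlier results of these data known. Replicate 2 of the E10.5 HLBs was left out. Other scalings, pseudocounts, filters, fits, thresholds and left-out libraries were tried. Some members of the lists are counted but not reported here by name.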

Additional observations from a re-analysis of the deposited data

Results flagged for a closer look

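Genes over 2-fold higher in BA than in each tissue were looked up in the libraries that the comparison left out, and those named in the text for which every library of such a group was above every BA library are given. Pitx1 stood at 239.5 ± 8.07 scaled CPM (SD, n = 2) in the E10.5 HLBs and at 244.4 ± 13.4 (SD, n = 3) in the early HLBs, against 121.7 ± 18.1 (SD, n = 3) in BA.
Alx1 was at 46.92 ± 2.28 (SD, n = 3) in the early FLBs against 22.97 ± 4.69 in BA. In ES-FLB, Epha3 was at 159.9 ± 10.8 against 75.1 ± 5.62 in BA, Six2 at 61.09 ± 6.10 against 46.9 ± 3.87, and 1110050K14Rik at 8.936 ± 1.07 against 4.32 ± 1.46 (SD, n = 3 each).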

How the results depend on the processing

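With libraries left out singly, genes higher in BA than in each tissue numbered 270 (without BA 1) to 453 (without Ca 3), those lower 251 (without BA 1) to 338 (without Ca 3), those higher than the mean 3195 to 3836 and those lower 3413 to 3849. Without BA 1, 2 or 3, 19 of the 382 no longer reached the minimum level, and 262, 292 and 263 were called again. A threshold of 0.001 gave 127 and 95 against each tissue and 1997 and 2278 against the mean. Over 2-fold, 106 and 50 passed against each and 446 and 846 against the mean, and a fit of the 9 other libraries as 1 group gave 118 and 54. The first 2 are stricter by construction. The third counted differences among Ca, TB and FLB as spread, which the reported fit did not. Against the mean it also gave 118 and 54, in place of 3754 and 3909. The other 11 alternatives gave 317 to 505 and 234 to 335 against each. Values as deposited moved the median of all genes against Ca to 0.1647, and gave 57.2% higher calls against the mean in place of 49.0%. A replicate block gave 383 and 335, with Tbx1 gained and Six2 and Epha3 lost among the named genes. No source says that a number marks shared embryos. Deviations of same-numbered libraries correlated at −0.075 to 0.141 and of others at −0.172 to 0.127, and each BA, Ca and FLB library correlated best with its own number among these 3 tissues, a hint from the data that TB did not share. With the E10.5 HLBs as a further tissue, an alternative chosen after seeing the data, smallest differences reversed for Pitx1 (−0.9831), Msx1 (−0.131), Jag1 (0.414) and Sox6 (0.5962), and pooled differences for Myf5 (0.04402) and Nkx2-5 (0.5087). Pooled differences also reversed for Foxd3 (−0.03954 with a pseudocount of 1, −0.1959 without BA 3 to 0.4503 without BA 2), for Lmx1b (0.1491), Myf5 (0.1921) and Nkx2-5 (1.15) with a pseudocount of 0.1, for Myf5 (0.07491, to −0.2544 without BA 3), Nkx2-5 (0.1142, to −0.3647 without BA 3) and Pou4f1 (−0.08465) without BA 1, and for Sox9 (0.01274 as deposited, 0.06715 without BA 2, −0.1224 without BA 3, 0.01129 without TB 1). Foxd3, Lmx1b, Myf5, Nkx2-5, Pou4f1 and Sox9 did not pass against the mean in the reported fit, and the cause of these changes was not tested. Of 3408 values of 133 named genes, 3143 kept direction and call. Count-based tests with edgeR and DESeq2 were not run, because the values are CPM and a few of them were not whole reads. FLB libraries were the shallowest, which limits calls of low genes against FLB.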

Other observations

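Replicate 2 had the highest Xist and the lowest levels of the Y-linked genes Ddx3y, Eif2s3y, Kdm5d and Uty in all 4 tissues, while the order of replicates 1 and 3 was not the same in TB for every gene. Xist was at 574, 873 and 223 scaled CPM in BA, 194, 359 and 78.1 in Ca, 98.5, 486 and 125 in TB and 505, 831 and 327 in FLB. Ddx3y, on the Y chromosome, was at 23.7, 13.1 and 38.4 in BA, 21.9, 10.4 and 43.0 in Ca, 43.4, 12.3 and 45.4 in TB and 31.0, 14.5 and 49.7 in FLB.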
